A study of Rattus norvegicus with 3 samples.

Results

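A set of 10 genes of the unfolded protein response and the integrated stress response was followed through rat embryonic cerebral cortex: Hspa5, Hsp90b1, Herpud1, Xbp1, Atf4, Ddit3, Asns, Sesn2, Chac1 and Trib3. They were taken by symbol from the 29772 genes annotated in the deposited single-cell count matrices, and all 10 had counts in each library. The 3 libraries came from wild-type rat cortex dissociated with papain, 1 library for each of the labels E14, E16 and E18 (embryonic day), and the labels name no other treatment and no number of embryos. The protocol text shared by the samples also describes oligonucleotide multiplexing, freezing of some samples and a sort of live human cells. Which of these steps the rat cells went through is not stated.

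Levels are given as unique molecular identifiers (UMIs) of a gene per 1000000 UMIs of all genes (CPM), summed over the cells of 1 class in 1 library, with exact 95% Poisson intervals. Cells with fewer than 1000 genes or more than 10% mitochondrial UMIs were left out. After removal of putative doublets 4286, 4977 and 5431 cells were left in the libraries labelled E14, E16 and E18. Median depth of these cells was 11199.5, 12264.0 and 10477.0 UMIs. A single library per label allows no test between labels, so intervals cover counting error only, and a difference is called where it reached 1.5-fold at a mean of at least 5 CPM. Sesn2, Chac1 and Trib3 stayed below that level in radial glia, intermediate progenitors and excitatory neurons, which leaves 7 genes for the ratios, or 6 where Asns was also too low.

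Clusters were named from marker genes. Radial glia, the stem cells of the cortex, numbered 436, 2178 and 1869 cells in the libraries labelled E14, E16 and E18. Their clusters had 10 to 12 of their markers raised. Another cluster, led by Ung and Cdc6 with radial glia as its nearest class, stayed unnamed and is left out of them. It held 0, 870 and 71 cells in the same order. It had 263 CPM of Hspa5 and 369 of Hsp90b1 labelled E16, against 331 and 480.4 in radial glia. Labelled E18 it had 375 and 433 CPM, against 291 and 466. With at least 2000 genes per cell, 2810 cells labelled E16 were named radial glia. Intermediate progenitors, the Eomes-positive daughters of radial glia, numbered 416, 386 and 925. Excitatory neurons, newborn and maturing together, numbered 3329 in the library labelled E14 and 2265 in that labelled E18, against 3 newborn and 1 maturing neuron in that labelled E16. A cluster with 597 cells of the library labelled E16, led by Calb1, Calb2 and Lhx9, met the marker rule of no class. It stayed unnamed, with Cajal-Retzius cells as its nearest class, and is given beside the neurons as the Calb1/Lhx9 cluster. At Leiden resolutions 0.5 and 2, 688 and 654 cells of that library were named Cajal-Retzius cells, against 144 here. Stage genes ran against the order of the labels. In radial glia, Hmga2, an early gene, stood at 11.2, 234 and 21.2 CPM in the libraries labelled E14, E16 and E18, and Aldoc, a late gene, at 709, 15.4 and 234 CPM. Embryonic chains made up 2.57%, 67.4% and 22.0% of globin UMIs in the same order. Comparisons are therefore between the library labelled E14, the library labelled E16 and the library labelled E18, not between ages. Between 12 and 17 cell barcodes were shared by any pair of libraries, at most 0.253% of the smaller one.

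The unfolded protein response adjusts the folding capacity of the endoplasmic reticulum (ER). Its sensors are IRE1, which splices Xbp1 mRNA, ATF6, which is cut to release a transcription factor, and PERK, a kinase that phosphorylates eIF2 and lets Atf4 mRNA be translated. The integrated stress response joins PERK with other eIF2 kinases that read amino acid shortage, haem and viral RNA. In the developing cortex a gradual decline of this signalling is known to accompany the shift of radial glia from making neurons directly to making intermediate progenitors. ATF4 is controlled chiefly by translation and XBP1 by splicing, and gene-level UMI counts read neither.

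The promoters of the ER members carry the elements through which ATF6 and XBP1 are known to act, and 4 are shown because the levels of Hspa5 and Hsp90b1 ran in parallel across classes while those of Xbp1 and Herpud1, which hold elements of the same family, did not. Each run reads 5′ to 3′ on the strand of the gene and ends before its annotated start, from RefSeq on build GRCr8; the counts were made on build mRatBN7.2. Capitals mark the ER stress element (ERSE, CCAAT and CCACG with 9 bases between them), its shorter relative (ERSE-II, ATTGG and CCACG with 1 base between them) and the C/EBP-ATF response element (TGATGNAAN), searched on both strands.
Hspa5, chr3:38452896-38453015, plus strand: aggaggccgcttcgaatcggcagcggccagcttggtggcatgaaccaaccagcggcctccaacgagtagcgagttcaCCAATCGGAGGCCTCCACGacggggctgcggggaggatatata
Hsp90b1, chr7:23012337-23012479, minus strand: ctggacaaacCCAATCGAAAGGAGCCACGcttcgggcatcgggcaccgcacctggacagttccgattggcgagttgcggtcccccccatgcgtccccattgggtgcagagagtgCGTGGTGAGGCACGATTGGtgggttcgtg
Xbp1, chr14:84604503-84604622, plus strand: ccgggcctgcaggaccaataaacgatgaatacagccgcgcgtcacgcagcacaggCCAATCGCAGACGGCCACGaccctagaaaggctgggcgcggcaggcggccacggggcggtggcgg
Herpud1, chr19:10614798-10614917, minus strand: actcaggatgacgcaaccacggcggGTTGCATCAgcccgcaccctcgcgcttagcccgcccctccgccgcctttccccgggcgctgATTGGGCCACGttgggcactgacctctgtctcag

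Only exact matches to these letters were counted, so sites that depart from them are missed. By this rule Hspa5 and Xbp1 hold 1 ERSE each, beginning 43 and 65 bases before the start. Hsp90b1 holds 2 in opposite orientations, beginning 176 and 72 bases before it. Herpud1 holds the ERSE-II and, further out, a C/EBP-ATF response element. Among all 33469 promoters of the same 300 bases, 0.0657% hold an ERSE, 0.0508% an ERSE-II and 3.97% a C/EBP-ATF response element. That last element was also matched in Trib3 and Chac1. The core of the unfolded protein response element (TGACGTGG), present in 0.595% of promoters, was matched in none of the 10. Atf4, Ddit3, Asns and Sesn2 had no match to any of the 4 motifs within this window. A match of letters is a description and does not show binding.

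Hspa5 encodes BiP, the main Hsp70 chaperone of the ER lumen and the protein that holds the sensors inactive. In radial glia it stood at 260.3 (248 to 273), 331 (325 to 337) and 291 (285 to 298) CPM in the libraries labelled E14, E16 and E18. Levels in radial glia thus lay within 1.5-fold of each other, the library labelled E16 highest. Intermediate progenitors had 118 (109 to 128), 183 (171 to 197) and 182 (174 to 189.8) CPM, below the radial glia of their own library in every case. In the library labelled E14, newborn neurons stood at 111 (106 to 116) and maturing neurons at 89.6 (85.9 to 93.4) CPM. In that labelled E18, newborn neurons stood at 252 (240.5 to 264) and maturing neurons at 174 (167 to 180.4) CPM. The Calb1/Lhx9 cluster of the library labelled E16 had 254 (240.5 to 267) CPM, with an interval that overlapped that of the newborn neurons labelled E18. Excitatory neurons of the library labelled E14 therefore had less Hspa5 than those labelled E18, whereas the radial glia of the 3 libraries were alike to within 1.5-fold.

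Hsp90b1 encodes GRP94, the Hsp90 chaperone of the ER, which folds integrins, Toll-like receptors and other secretory clients. Radial glia had 495 (478 to 513), 480.4 (473 to 488) and 466 (458 to 475) CPM in the libraries labelled E14, E16 and E18. These were within 1.5-fold of each other. Intermediate progenitors had 180.0 (168 to 192), 291 (276 to 308) and 279 (269 to 289) CPM. Newborn and maturing neurons had 103 (97.9 to 108) and 91.0 (87.4 to 94.9) CPM in the library labelled E14, and 253 (241 to 265) and 191 (184 to 198) CPM in that labelled E18. The Calb1/Lhx9 cluster had 277 (263 to 291) CPM. As for Hspa5, radial glia were the highest of these classes in each library and the neurons labelled E14 the lowest. For Hspa5 the intervals of newborn neurons (106 to 116) and intermediate progenitors (109 to 128) labelled E14 overlapped. Their order was kept in 9 of 12 alternative settings.

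**Figure D1:**
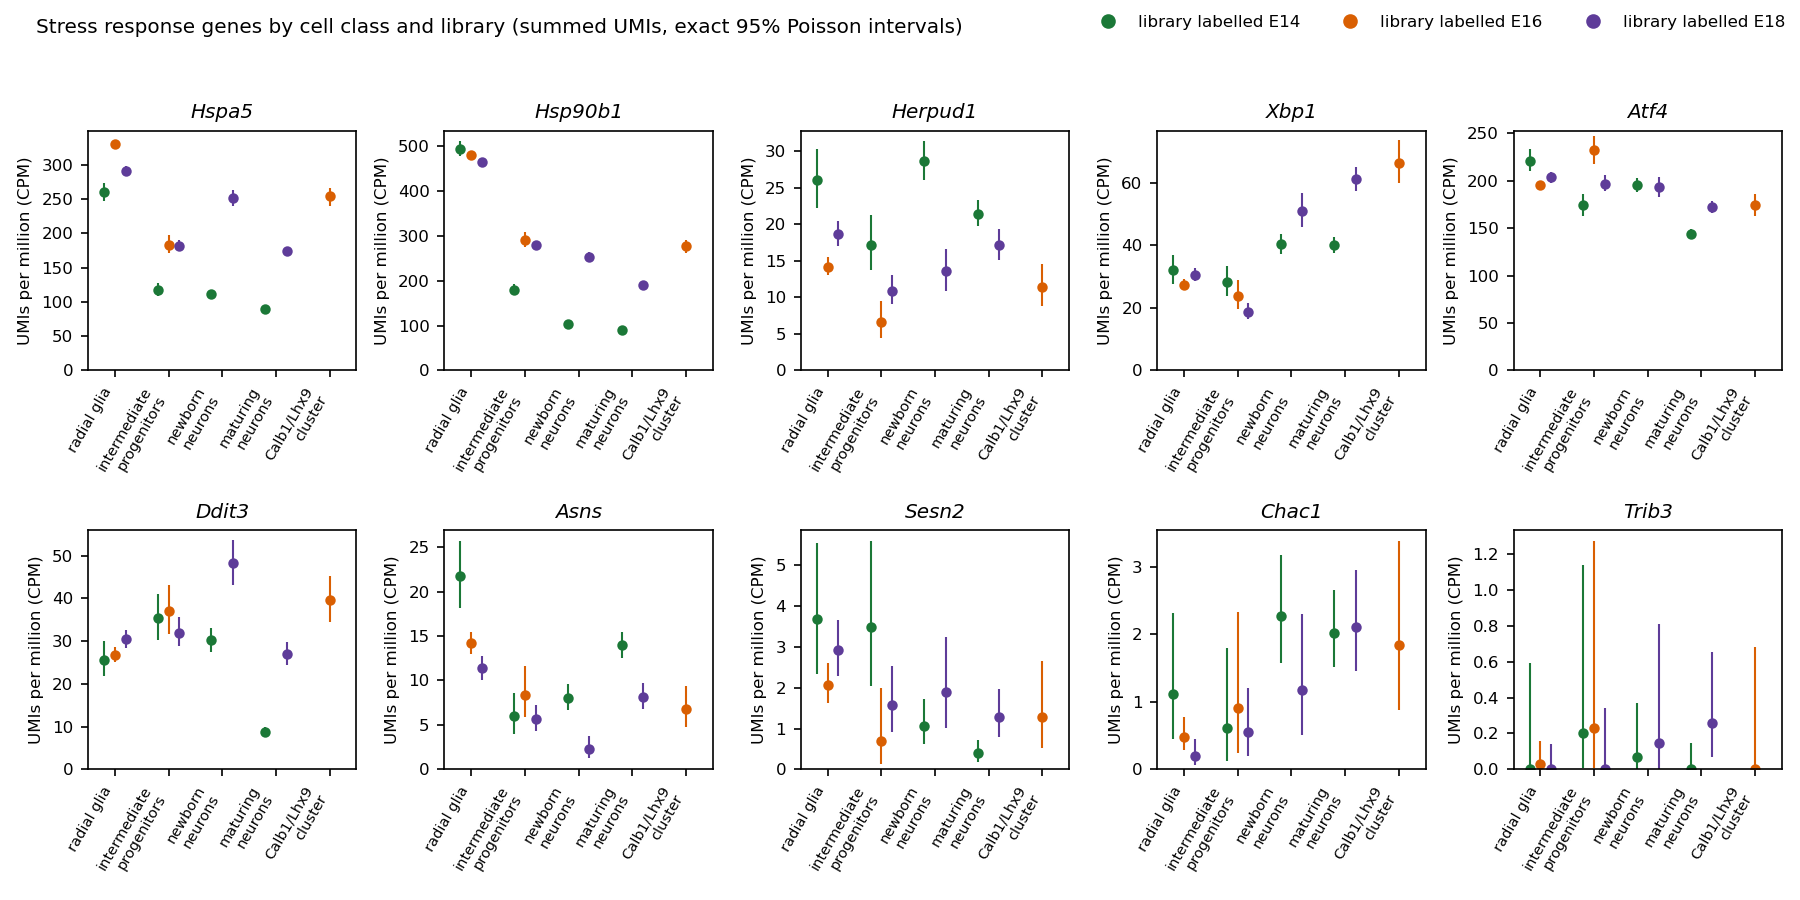
Level of each of the 10 genes (vertical axes, UMIs per 1000000, linear and starting at 0) in radial glia, intermediate progenitors, newborn and maturing excitatory neurons and the Calb1/Lhx9 cluster, coloured by library label; points are sums over cells and bars exact 95% Poisson intervals. Hspa5 runs from 331 CPM in radial glia labelled E16 to 89.6 CPM in maturing neurons labelled E14, while Trib3 lies at or near 0 throughout.

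As ratios, excitatory neurons of the library labelled E14 had a log2 ratio to its radial glia of -1.41 (-1.49 to -1.32) for Hspa5 and -2.36 (-2.43 to -2.29) for Hsp90b1, after adding 1 CPM to both sides. In the library labelled E18 the ratios were -0.56 for Hspa5, short of the 1.5-fold line, and -1.15 (-1.20 to -1.10) for Hsp90b1. The Calb1/Lhx9 cluster gave -0.38 and -0.79 over the radial glia of its library. Between labels, neurons of the library labelled E18 exceeded those of the library labelled E14 by 1.01 (0.95 to 1.07) for Hspa5 and 1.13 (1.06 to 1.19) for Hsp90b1, or 2.02-fold and 2.18-fold. The excess was present in newborn neurons alone (1.18 and 1.29) and in maturing neurons alone (0.95 and 1.06). Over alternative settings these ran from 0.79 to 1.23 and 0.27 to 1.38 in newborn and from 0.38 to 1.03 and 0.70 to 1.12 in maturing neurons. Intermediate progenitors labelled E18 also exceeded those labelled E14, by 0.61 for Hspa5 and 0.63 for Hsp90b1, both past 1.5-fold. Each passed that line in 9 of 13 alternative settings, and with at most 5% mitochondrial UMIs the values were 0.35 and 0.05. A cluster led by Efl1 and Eomes held 218 of the 416 intermediate progenitors labelled E14 and 271 of the 925 labelled E18. Label and make-up cannot be told apart there. The corresponding ratios in radial glia were 0.16 and -0.09.

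Different clusters held most of the neurons in the libraries labelled E14 and E18. Newborn neurons labelled E14 came from a cluster led by Sstr2 and Unc5d (909 cells) and a cluster led by Selenom (824 cells), and those labelled E18 from a cluster led by Neurod1 (831 cells). Maturing neurons labelled E14 came mostly from a cluster with Tafa2 and Syt4 among its leading genes (789 cells) and a cluster led by Dync1i1 and Sybu (721 cells), those labelled E18 from clusters led by Pcp4 and Cntn2 (911 cells) and by Crym and Rprml (491 cells). In that Crym-led cluster, the only neuron cluster with at least 50 cells from both libraries, Hspa5 was at 98.0 (81.9 to 116) CPM in 76 cells labelled E14 and 129.6 (121 to 138) CPM in 491 labelled E18. Hsp90b1 in the same cells was at 88.2 (73.0 to 106) and 158 (149 to 167) CPM. Both differences kept their direction there, with intervals that did not overlap, but were smaller in size than over all neurons, and that of Hspa5 was short of 1.5-fold. Label, age, neuron subtype and library preparation cannot be told apart in this comparison.

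Cell quality differed too. The median mitochondrial share was 7.18% in neurons labelled E14 and 5.75% in those labelled E18. Globin, the RNA of erythroid cells, stood at 430.5 and 282 CPM in them, but the direction differed between subclasses: 1025 and 334 CPM in newborn, 76.7 and 259 CPM in maturing neurons. Only 84 of the neurons labelled E14 had at most 5% mitochondrial UMIs. Those 84 had 132 CPM of Hspa5 and 113 CPM of Hsp90b1 (per 1000000 non-mitochondrial UMIs), against 252 and 260.5 CPM in 554 such neurons labelled E18. Among neurons over 5%, the values were 104 and 103 CPM for the label E14 and 194 and 208 CPM for E18. The label E14 had the lower values on both sides of 5%. The clusters of these cells were not matched, and the part of cell quality was not tested. Immediate early genes, which dissociation is known to induce, summed to 536 CPM in newborn neurons labelled E14 and 511 CPM in those labelled E18, and to 262 and 370.1 CPM in maturing neurons. Cytosolic heat shock genes summed to 6194 and 6697 CPM over all neurons of the 2 labels. Their part in the result was not tested.

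Within the progenitors, both chaperones varied with the cell cycle genes that lead the clusters. Of the radial glia clusters, 1 had Pttg1 and Ccnb2 among its leading genes, after the histone gene Hist1h4b, and 1 had Ube2c and Cdc20. These are genes of G2 phase and mitosis. Both clusters had 655 to 864 CPM of Hsp90b1 in the 5 combinations of cluster and library with at least 50 cells. In the other radial glia clusters, led by the histone genes H4f3 and H1f5 or by Aldoc, the range was 335 to 431 CPM over 7 combinations. The same groups had 308 to 423 and 233 to 289 CPM of Hspa5. Intermediate progenitors showed the same split: in the mitotic cluster led by Ppp1r17 and Ube2c, Hsp90b1 was at 421, 476 and 578 CPM in the libraries labelled E14, E16 and E18, against 95 to 205 CPM in the other progenitor clusters. The intervals of the mitotic and the other clusters did not overlap for Hsp90b1, and some did for Hspa5. These clusters were drawn from the same counts, so this is a description and not a test. The share of mitotic clusters thus enters any class average of Hsp90b1. In radial glia these clusters held 46 and 56 of 436 cells labelled E14 and 423 and 412 of 2178 labelled E16. They held 267 and 236 of 1869 labelled E18. In intermediate progenitors the mitotic cluster held 90 of 416, 146 of 386 and 238 of 925 cells in the same order.

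**Figure D2:**
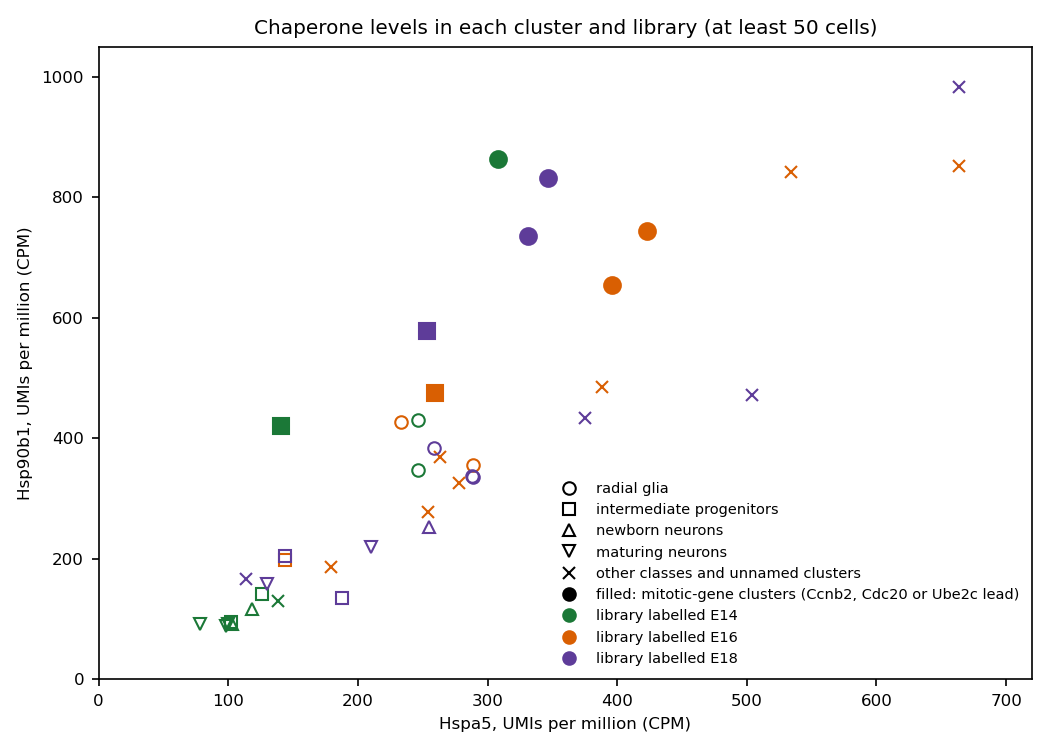
Hspa5 (horizontal) against Hsp90b1 (vertical), both in UMIs per 1000000 on linear axes. There is 1 point per cluster and library of at least 50 cells, with erythroid cells left out. Shape gives the class, colour the library label, and filled shapes the clusters with mitotic genes among their leading genes. Mitotic radial glia lie at 655 to 864 CPM of Hsp90b1, above the other radial glia at 335 to 431 CPM, and the neurons labelled E14 lie at the lower left.

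Outside the excitatory lineage, among classes with at least 50 cells in a library, both genes were highest in choroid plexus and meningeal cells. The choroid plexus, which secretes cerebrospinal fluid, had 664 CPM of Hspa5 in each of the libraries labelled E16 and E18, and 852 (819 to 887) and 983 (936 to 1033) CPM of Hsp90b1. Meningeal or fibroblast-like cells, which make collagen, had 534 and 843 CPM in the library labelled E16. Cajal-Retzius cells, the Reln-secreting neurons of the marginal zone, had 278 and 504 CPM of Hspa5 in the libraries labelled E16 and E18. GABAergic cells lay low, at 114 to 179.5 CPM of Hspa5. Of the 21 steps between neighbours in the order of 22 class-by-library levels without erythroid cells, intervals overlapped in 15 for Hspa5 and 16 for Hsp90b1. Among these 22 levels of Hsp90b1, the highest (choroid plexus labelled E18) and the lowest (maturing neurons labelled E14) were apart from their neighbours, while choroid plexus and meningeal cells labelled E16 overlapped.

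Herpud1 encodes an ER membrane protein of ER-associated degradation, the route that returns misfolded proteins to the proteasome. Among radial glia, intermediate progenitors and excitatory neurons it was highest under the label E14 in each class. In radial glia it stood at 26.0 (22.2 to 30.3), 14.2 (13.0 to 15.5) and 18.6 (17.0 to 20.4) CPM in the libraries labelled E14, E16 and E18. The log2 ratio of the label E16 to E14 was -0.83 (-1.08 to -0.58), past 1.5-fold, though -0.44 with at most 5% mitochondrial UMIs, and that of E18 to E14 was -0.46. Radial glia of the labels came from different clusters too: a cluster led by histone genes held 1267 of the 2178 labelled E16 and 3 labelled E14, while a cluster led by Aldoc held 230 of the 436 labelled E14 and 68 labelled E16. Within the Aldoc-led cluster Herpud1 was at 24.9 (19.5 to 31.4) CPM under the label E14 and 14.8 (7.40 to 26.5) CPM under E16, with overlapping intervals. Intermediate progenitors had 17.2 (13.8 to 21.3), 6.60 (4.42 to 9.48) and 10.9 (9.04 to 13.1) CPM, with the label E14 again highest. They too came from different clusters: a cluster led by Efl1 and Eomes held 218 of 416, 10 of 386 and 271 of 925 of them. Newborn neurons had 28.6 (26.0 to 31.4) CPM in the library labelled E14 and 13.6 (10.9 to 16.6) CPM in that labelled E18, a log2 ratio of -1.02 (-1.34 to -0.72), past 1.5-fold in 11 of 12 alternatives but 0.06 with at most 5% mitochondrial UMIs, where 57 newborn neurons labelled E14 were left. Maturing neurons differed less, at 21.4 and 17.1 CPM. Excitatory neurons labelled E14 thus had more Herpud1 and less Hspa5 than those labelled E18. In the Crym-led cluster shared by both libraries Herpud1 was at 15.1 and 15.7 CPM, with overlapping intervals.

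Xbp1 encodes the transcription factor made active by IRE1, a regulator of secretory capacity. Radial glia had 32.0 (27.7 to 36.7), 27.3 (25.6 to 29.1) and 30.6 (28.5 to 32.8) CPM in the libraries labelled E14, E16 and E18, within 1.5-fold of each other. Intermediate progenitors were no higher, at 28.1, 23.9 and 18.8 CPM. Excitatory neurons were above radial glia in the libraries labelled E14 and E18. Newborn and maturing neurons stood at 40.3 and 40.0 CPM in the library labelled E14 and at 51.0 and 61.1 CPM in that labelled E18. The Calb1/Lhx9 cluster stood at 66.4 (59.7 to 73.6) CPM. The log2 ratios of excitatory neurons to radial glia were 0.32 (0.11 to 0.53) in the library labelled E14, short of 1.5-fold, and 0.90 (0.77 to 1.03) in that labelled E18, past it. The Calb1/Lhx9 cluster gave 1.25 (1.08 to 1.42). Hspa5 and Hsp90b1 had negative ratios in the same comparisons. Cajal-Retzius cells labelled E18 (92.6 CPM) and meningeal cells labelled E16 (92.7 CPM) had the highest levels among classes with at least 50 cells. Endothelial cells had 147 (123 to 175) CPM in 26 cells pooled over the libraries.

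Atf4 encodes the transcription factor at the centre of the integrated stress response. Its mRNA varied little among radial glia, intermediate progenitors and neurons. Radial glia had 221 (209.9 to 233), 195 (190.4 to 199.6) and 204 (198 to 209) CPM in the libraries labelled E14, E16 and E18, and intermediate progenitors 174, 232 and 197 CPM. Newborn neurons were at 195 and 193 CPM in the libraries labelled E14 and E18, maturing neurons at 144 and 172 CPM, and the Calb1/Lhx9 cluster at 174 CPM. Over 22 class-by-library levels, erythroid cells left out, the highest was 2.82 times the lowest, against 5.50 for Ddit3 and 10.8 for Hsp90b1. No comparison of labels, or of newborn and maturing neurons together with radial glia, reached 1.5-fold as reported. With maturing neurons alone the log2 ratio to radial glia in the library labelled E14 was -0.62, past it. Erythroid cells of the library labelled E16, whose UMIs are mostly globin, were at 32.2 CPM. The lowest of the 22 levels were 86.0 (72.4 to 101) CPM in the choroid plexus labelled E18 and 119 (88.0 to 156) CPM in GABAergic cells of the same library, with overlapping intervals.

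Ddit3 encodes CHOP, an ATF4 target that drives cell death when stress persists. Its mRNA was counted in every class. Radial glia had 25.7 (21.9 to 30.0), 26.8 (25.1 to 28.6) and 30.5 (28.4 to 32.7) CPM in the libraries labelled E14, E16 and E18, and intermediate progenitors 35.3, 37.1 and 32.0 CPM. Newborn neurons had 30.2 (27.5 to 33.1) CPM in the library labelled E14 and 48.3 (43.2 to 53.7) CPM in that labelled E18, with an interval that overlapped that of Cajal-Retzius cells labelled E18 (45.8 CPM). Maturing neurons had 8.77 (7.65 to 10.0) and 27.0 (24.5 to 29.7) CPM. Maturing neurons were thus below newborn neurons in both libraries, by -1.67 (-1.89 to -1.46) and -0.81 on the log2 scale. The border between newborn and maturing neurons moved with the settings, with 340 to 1494 maturing cells in the library labelled E18 over the alternatives against 1417 here. The ratio stayed negative in 12 of 12 alternatives for the label E14 and 13 of 13 for E18. The library labelled E14 was also below that labelled E18 in newborn neurons (0.66, E18 over E14, past 1.5-fold in 5 of 12 alternatives) and in maturing neurons (1.52, in 12 of 12). In the Crym-led cluster shared by both libraries, Ddit3 was at 20.4 (13.4 to 29.6) and 16.8 (13.8 to 20.1) CPM. The difference between labels was not present in those cells, and it cannot be told apart from the make-up of the neurons. Over all neurons of the library labelled E14 the log2 ratio to radial glia was -0.59, and with newborn neurons alone it was 0.23, the opposite direction.

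Cells with Ddit3 were counted after thinning every cell to 2000 UMIs, which left out at most 13 cells of any class given here. Ddit3 was seen in 5.53% of newborn neurons labelled E14 and 9.08% of those labelled E18, and in 1.58% and 5.06% of maturing neurons. Median depth was 7990.0 and 7537.0 UMIs in newborn and 15086.0 and 10042.0 in maturing neurons. Without thinning the 4 shares were 20.7%, 29.0%, 12.6% and 23.1%. Hspa5 was seen in 18.7% and 37.3% of newborn neurons labelled E14 and E18 after thinning. These shares have no measured background, since no class lacked Ddit3. Erythroid cells of the library labelled E16 were at 1.61% for Ddit3 after thinning, but 816107 of 1000000 of their UMIs were globin, which leaves few others in a thinned cell. Within newborn neurons labelled E18, Hsp90b1 was seen in 43.0% of cells with an Hspa5 UMI and in 34.0% of the others, and within radial glia labelled E16 in 61.4% and 51.0%. In radial glia labelled E14 these shares were 51.4% and 51.1%. The share was higher in cells with Hspa5 in 9 of the 10 combinations of class and library. Atf4 by Ddit3 went both ways, higher in cells with a Ddit3 UMI in 5 of 10 and lower in the other 5, from 40.9% against 34.8% in radial glia labelled E14 to 21.7% against 33.2% in intermediate progenitors labelled E14. As few as 22 cells carried a Ddit3 UMI in these combinations.

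Asns encodes asparagine synthetase, an ATF4 target that supplies asparagine. Radial glia were the highest of the lineage classes in each library, with 21.7 (18.2 to 25.7), 14.2 (13.0 to 15.5) and 11.4 (10.1 to 12.7) CPM in the libraries labelled E14, E16 and E18. The label E18 was below E14 by -0.88 (-1.16 to -0.59) on the log2 scale, past 1.5-fold. In the Aldoc-led cluster, however, the labels E14 and E18 stood at 12.3 (8.61 to 17.0) and 11.9 (9.75 to 14.3) CPM, against 28.2 and 10.9 CPM in a cluster led by H1f5 and H4f3, where intervals did not overlap. Intermediate progenitors had 5.95, 8.42 and 5.65 CPM. Newborn neurons had 8 (6.63 to 9.57) CPM in the library labelled E14 and 2.33 (1.33 to 3.79) CPM in that labelled E18. Maturing neurons had more than newborn ones in both libraries, 14 and 8.18 CPM, with log2 ratios of 0.73 (0.46 to 1.01) and 1.46 (0.89 to 2.02). Asns was thus higher, and Ddit3 lower, in maturing than in newborn neurons. For Asns this ratio stayed positive in every alternative run, from 0.41 to 1.67 for the label E14 and from 0.56 to 1.58 for E18. In mitotic radial glia labelled E14 it reached 38.6 (27.5 to 52.8) CPM in 56 cells.

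Sesn2, Chac1 and Trib3 were close to the limit of detection. Sesn2, a stress-induced inhibitor of mTORC1, stood at 3.69, 2.06 and 2.92 CPM in radial glia of the libraries labelled E14, E16 and E18 and at 0.397 to 1.90 CPM in newborn and maturing neurons. Chac1, which degrades glutathione, stood at 1.12, 0.481 and 0.194 CPM in radial glia, from 7, 17 and 5 UMIs, and at 1.17 to 2.27 CPM in the neurons. The values of Sesn2 were thus higher in radial glia than in these neurons and those of Chac1 lower, at levels too low for a call. Trib3, a pseudokinase that restrains ATF4, gave 0, 1 and 0 UMIs in radial glia, and the interval of the 0 in the library labelled E18 reaches 0.143 CPM. Of the 39 Trib3 UMIs in the library labelled E16, 23 came from 124 erythroid cells, where its level was 5.62 (3.56 to 8.43) CPM. Radial glia labelled E18 with their 5 Chac1 UMIs and no Trib3 UMI gave 5240 UMIs of Atf4 and 785 of Ddit3.

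Counted together, the 7 genes had medians near those of all genes in radial glia. Of the 7, 1 was called between the labels E16 and E14 (Herpud1, lower), against 24.8% of all genes in either direction, and 1 between E18 and E14 (Asns, lower), against 13.0%. None was called between E18 and E16, against 8.09%. The median log2 ratio of the 7 was -0.18, -0.09 and 0.06 in these comparisons, and that of all genes at 5 CPM or more -0.10, -0.05 and 0.06. These comparisons share libraries and are not independent. In excitatory neurons, E18 over E14, 4 of 7 were called (Hsp90b1, Hspa5 and Ddit3 higher, Asns lower) against 13.3% of all genes, and the median was 0.52 against 0.04. Neurons over radial glia gave 4 of 7 called in the library labelled E14, all lower (Hsp90b1, Hspa5, Asns and Ddit3), against 51.7% of all genes, with Ddit3 past 1.5-fold in 8 of 15 alternatives. In that labelled E18 there were 3 of 7 (Xbp1 higher, Hsp90b1 and Asns lower) against 49.1%, and in the Calb1/Lhx9 cluster the same 3 genes against 49.9%. Counts of that size are near the background of so large a class difference. The medians were -0.59, -0.20 and -0.29 for the labels E14 and E18 and the Calb1/Lhx9 cluster, against -0.19, -0.08 and -0.07 for all genes.

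Intermediate progenitors against radial glia gave the most regular pattern. Hspa5 was lower by -1.13, -0.85 and -0.68 on the log2 scale in the libraries labelled E14, E16 and E18, Hsp90b1 by -1.45, -0.72 and -0.74, and Asns by -1.71, -0.69 and -0.89. All 9 ratios passed 1.5-fold as reported. Under alternative settings Asns passed it in 9 of 13 for the label E16 (-0.88 to -0.10) and in 10 of 13 for E18 (-0.93 to -0.45), and Hsp90b1 in 12 of 13 for E16. In all, 3, 4 and 5 of 7 genes were called in the 3 libraries, each of them lower, against 28.3%, 28.7% and 26.5% of all genes in either direction. Herpud1 was the fourth gene in the libraries labelled E16 and E18, and Xbp1 the fifth in that labelled E18, where it passed 1.5-fold in 9 of 13 alternatives. Ddit3 had positive ratios in the libraries labelled E14 and E16 (0.44 and 0.45), short of 1.5-fold.

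Finer classes and the intermediate progenitors were compared in the same way. In intermediate progenitors 3 of 7 genes were called between E16 and E14 (Hspa5 and Hsp90b1 higher, Herpud1 lower) against 29.3% of all genes, and the same 3 between E18 and E14 against 15.0%. Between E16 and E14 Hspa5 passed 1.5-fold in 10 and Hsp90b1 in 11 of 13 alternatives (lowest 0.35 and 0.17), and between E18 and E14 Herpud1 in 9 of 13 (-0.72 to -0.25). Between E18 and E16 Herpud1 alone was called, higher, against 12.2%, a call kept in 6 of 13 alternatives. The intermediate progenitors of the labels came from different clusters. A cluster led by Efl1 and Eomes held 218 of 416 labelled E14, 10 of 386 labelled E16 and 271 of 925 labelled E18. Label and make-up cannot be told apart in these comparisons. Newborn neurons, E18 over E14, gave 5 of 7 (Hspa5, Hsp90b1 and Ddit3 higher, Asns and Herpud1 lower) against 21.9%, with Asns past 1.5-fold in 6 of 12 alternatives. Maturing neurons gave 5 of 7 (Ddit3, Hsp90b1, Hspa5 and Xbp1 higher, Asns lower) against 15.1%, with Xbp1 past it in 6 of 12 and Hspa5 and Asns in 9 of 12. Along the lineage, newborn neurons over intermediate progenitors gave 2 of 7 in the library labelled E14 (Herpud1 higher, Hsp90b1 lower) against 35.2%. These passed it in 7 and 10 of 12 alternatives, and with at most 5% mitochondrial UMIs both changed sign, to -0.18 and 1.08. In that labelled E18 they gave 1 of 6, Xbp1 at 1.39 (1.15 to 1.64), against 31.1%. Maturing over newborn neurons gave the same 2 of 7 in both libraries, Ddit3 lower and Asns higher, against 20.8% and 27.4%. These counts along the lineage are near or below the shares of all genes.

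**Figure D3:**
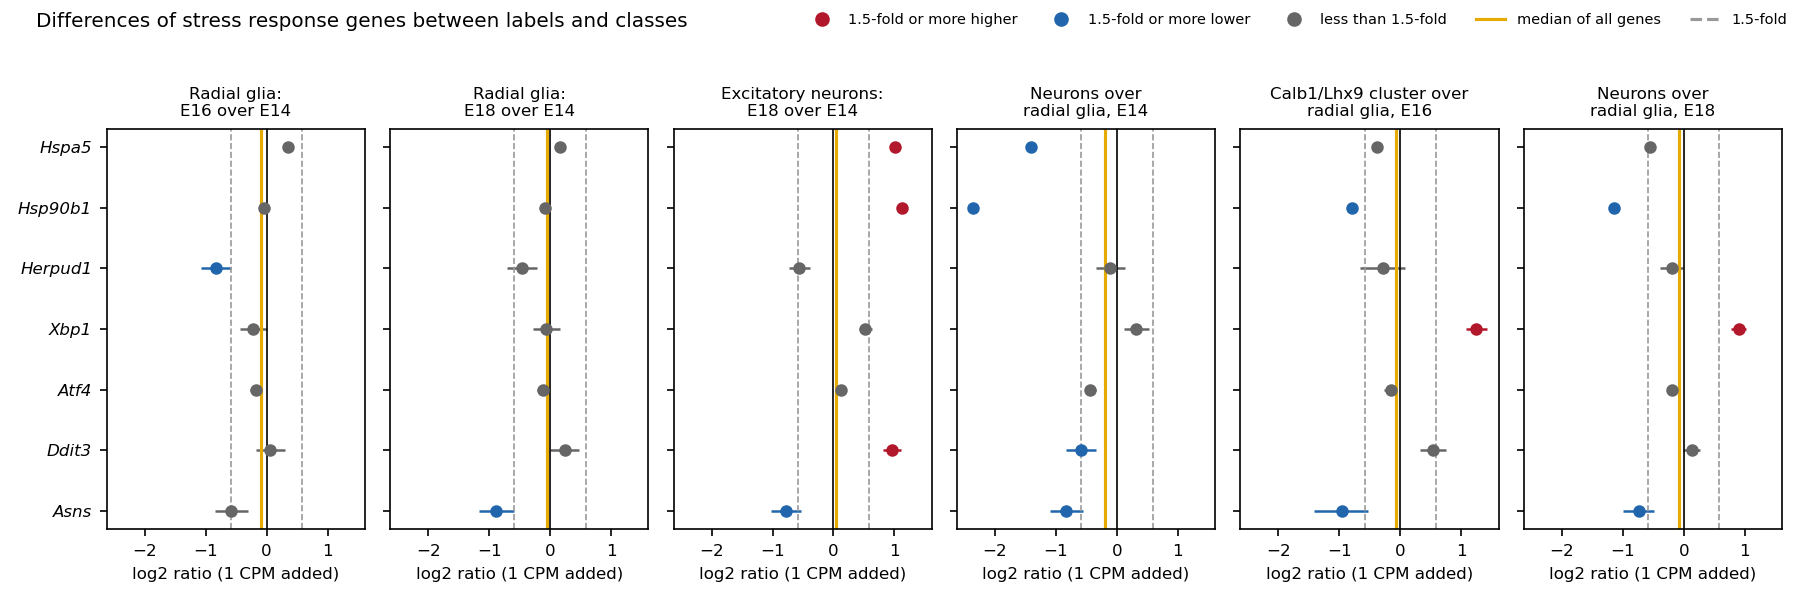
Log2 ratios (horizontal axis, 1 CPM added) of the 7 genes at 5 CPM or more in 6 comparisons, with 95% intervals of counting error; red marks 1.5-fold or more higher, blue 1.5-fold or more lower, grey neither, dashed lines 1.5-fold and the yellow line the median of all genes. In radial glia of different labels Herpud1 (E16 over E14) and Asns (E18 over E14) alone pass the line, both lower, while Hspa5 and Hsp90b1 lie right of the line for neurons E18 over E14 and left of it for neurons over radial glia labelled E14.

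Other genes of the 2 pathways were read from lists of fixed membership. Of 8 sensors and eIF2 kinases, 7 could be compared between neurons of the labels E18 and E14, and none reached 1.5-fold, against 13.3% of all genes. In neurons over radial glia 1 of 7 was called in the library labelled E14 and 2 of 7 in that labelled E18, against 51.7% and 49.1%. Atf6 stood at 32.1, 25.9 and 34.6 CPM in radial glia of the libraries labelled E14, E16 and E18, and at 34.9 and 50.4 CPM in neurons labelled E14 and E18. Eif2ak1, the kinase that reads haem, stood at 71.0, 55.9 and 61.5 CPM in radial glia. Ern1 (IRE1) was at 2.45 to 3.05 CPM in radial glia and 4.65 and 4.89 CPM in the neurons, Eif2ak3 (PERK) at 5.17 to 6.25 and at 8.23 and 6.84 CPM, in the same order. Eif2ak4 (GCN2), which reads uncharged tRNA, was at 16.7 to 20.6 CPM in radial glia.

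The ER chaperones and folding enzymes that are not among the 10 genes were lower in neurons than in radial glia of the library labelled E14 in 11 of 17 measured genes, with none higher and a median log2 ratio of -0.96, against 51.7% of all genes called in either direction and a median of -0.19. In the library labelled E18 it was 6 of 16 with a median of -0.07, against 49.1% and -0.08, and in the Calb1/Lhx9 cluster 2 of 16 with a median of 0.12, against 49.9% and -0.07. Sdf2l1, a partner of BiP, stood at 44.2 CPM in radial glia and 10.2 CPM in neurons labelled E14, a log2 ratio of -2.01 (-2.23 to -1.80). Creld2 stood at 41.7 and 14 CPM in the same classes. In neurons, E18 over E14, 3 of 16 were higher and 1 lower, with a median of 0.21, against 13.3% of all genes called and a median of 0.04. Calr, the calcium-binding chaperone calreticulin, was at 443 and 222 CPM in neurons labelled E18 and E14, a log2 ratio of 0.99 (0.95 to 1.03), and Pdia4, a disulfide isomerase, at 44.1 and 21.5 CPM (1.00, 0.88 to 1.13). Dnajb9, a cochaperone of BiP, was at 24.9 and 31.3 CPM and did not go with them. In radial glia, E18 over E14, 1 of 17 was called against 13.0% of all genes, Hyou1 at 17.5 and 31.6 CPM.

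Genes of ER-associated degradation were mixed. In radial glia, E16 over E14, 5 of 12 were lower and 1 higher, against 24.8% of all genes called in either direction. Selenos was among the lower ones (39.0 against 85.3 CPM), the same direction as Herpud1. In neurons, E18 over E14, none of 12 reached 1.5-fold, against 13.3% of all genes. Os9, a lectin that recognises misfolded glycoproteins, was higher in excitatory neurons than in radial glia of the libraries labelled E14 and E18, with log2 ratios of 0.71 and 0.81, and at 1.05 in the Calb1/Lhx9 cluster.

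Among amino acid supply genes that ATF4 is known to control, those called in neurons over radial glia were nearly all lower, as Asns was. Of 14 measured genes, 10 were lower and none higher in the library labelled E14, against 51.7% of all genes called in either direction, and 7 lower and 1 higher in that labelled E18, against 49.1%. In the Calb1/Lhx9 cluster 6 of 12 were lower and 1 higher, against 49.9%. The medians were -0.88, -0.65 and -0.61, against -0.19, -0.08 and -0.07 for all genes. Phgdh and Psat1, the first enzymes of serine synthesis and known radial glial genes, led them. Phgdh stood at 204 CPM in radial glia and 3.04 CPM in neurons labelled E14, and at 151 and 3.33 CPM in those labelled E18. Slc38a2, an amino acid transporter, did not follow, at 79.8 and 110.4 CPM in the library labelled E14. In radial glia, 7 of 15 were lower in the label E16 than in E14, against 24.8% of all genes, led by Slc7a3 (5.20 against 50.4 CPM). There 6 of 14 were lower in E18 than in E14, against 13.0%, led by Slc7a3 (22.8 against 50.4 CPM) and Slc3a2 (79.9 against 172 CPM). Cytosolic aminoacyl-tRNA synthetases, which charge tRNAs, were lower than in radial glia in 8 of 12 genes in neurons labelled E14, 8 of 12 in the Calb1/Lhx9 cluster and 5 of 12 in neurons labelled E18, against 51.7%, 49.9% and 49.1% of all genes called. Sars1 alone had positive ratios, at 0.38, 0.43 and 0.37. Of the synthetases, 7 of the 11 with a promoter sequence hold the C/EBP-ATF response element, against 3.97% of all promoters. Of the amino acid supply genes, 4 of 16 hold it, and Asns does not.

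Of the other stress factors, 2 of 8 were higher than in radial glia in neurons labelled E14, 4 of 8 in the Calb1/Lhx9 cluster and 4 of 8 in neurons labelled E18, with 1 lower in each. These counts are near or below the 51.7%, 49.9% and 49.1% of all genes called in the same comparisons. Creb3, an ER-tethered transcription factor, and Ddit4, an inhibitor of mTORC1, had log2 ratios of neurons to radial glia of 0.44 and 0.29 in the library labelled E14 and 0.93 and 0.68 in that labelled E18. The Calb1/Lhx9 cluster had ratios of 1.26 and 1.06 to radial glia. Atf5 stood at 36.9 CPM in radial glia labelled E14 and 6.15 CPM in their neurons. Bbc3, the cell death gene PUMA, was lower in neurons labelled E18 than in those labelled E14, at 16 and 28.9 CPM.

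**Figure D4:**
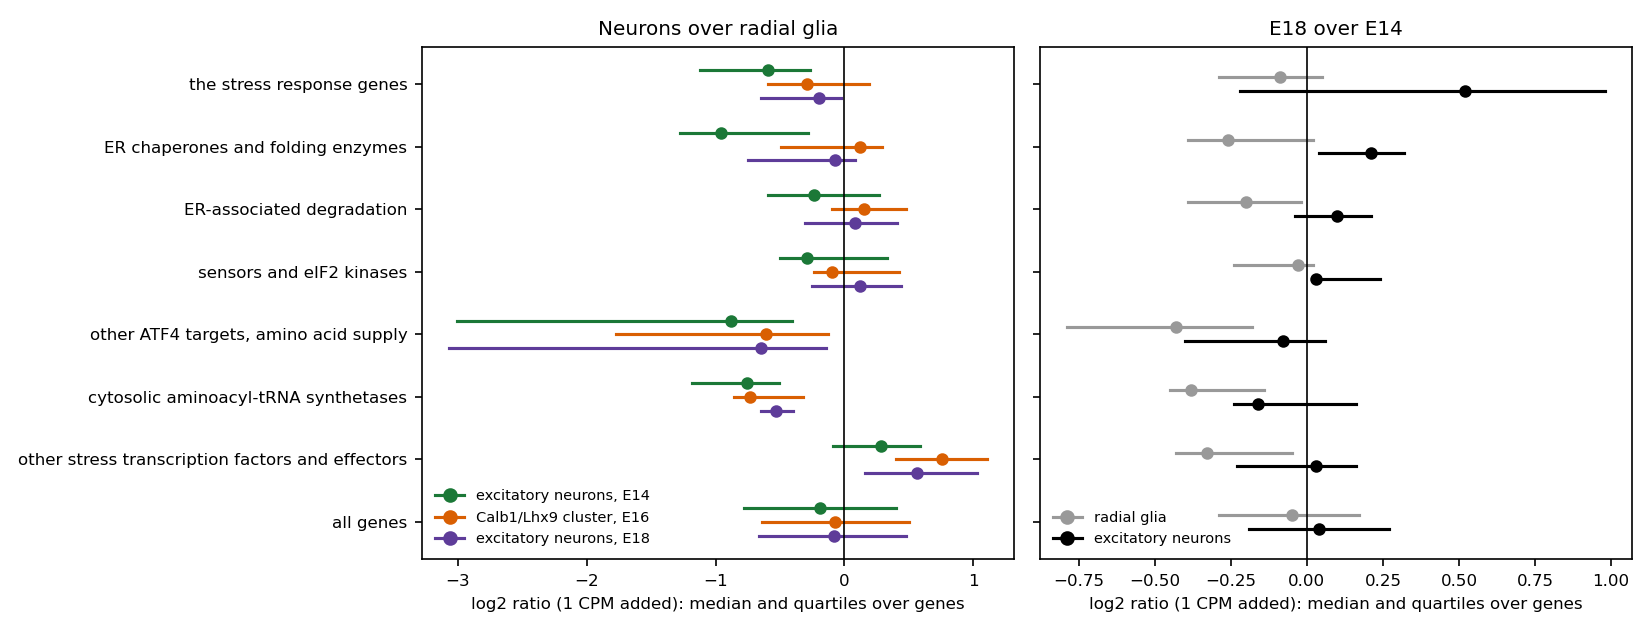
Median log2 ratio (points, 1 CPM added) and quartiles over genes (lines) for the 7 measured stress response genes, 6 other lists and all genes: neurons over radial glia by library on the left, E18 over E14 within radial glia and within neurons on the right. ER chaperones sit at -0.96 for the label E14 but at -0.07 for E18 and 0.12 for the Calb1/Lhx9 cluster, and other stress factors lie right of 0 in all 3.

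The genes whose levels were most like each member were found over 23 class-by-library units, as Pearson's r of log2(CPM + 10). The nearest to Hspa5 were Hsp90b1 (0.97), Calr (0.96) and Pdia4 (0.95), and the nearest to Hsp90b1 were Hspa5 (0.97), Pdia4 (0.96) and Pdia3 (0.96). Without erythroid cells the pair Hspa5 and Hsp90b1 had an r of 0.95 over 22 units. All of these are ER chaperones or folding enzymes. For the 5 other members that reached 20 CPM in any unit, the nearest gene was not another member. Xbp1 lay nearest to Vapb (0.92), Ddit3 to Mbd6 (0.88), Atf4 to Zmiz1 (0.95), Asns to Ptprz1 (0.82), a radial glial gene, and Herpud1 to Mri1 (0.85). Of the other pairs of members, Atf4 and Ddit3 had the highest r, 0.69, or 0.47 without erythroid cells. Without erythroid cells Hspa5 had an r of 0.41 with Xbp1, 0.30 with Ddit3 and -0.26 with Atf4. The units share libraries, so these values are descriptions.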

How the data were processed

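The 3 libraries were made with a 10x Genomics 3′ kit, version 3.1, per the labels' protocols. The authors deposited raw UMI counts per gene and cell barcode, and the submitters' processing notes name Cell Ranger 6.0.1 and the build mRatBN7.2. Barcodes numbered 7100, 6707 and 6937 and total counts 62740631, 80974234 and 73727823 in the libraries labelled E14, E16 and E18, and 4444, 5193 and 5690 cells passed both limits. Putative doublets (158, 216 and 259) were removed by Scrublet score at 0.8% per 1000 cells, because Scrublet's own threshold marked only 0.0385% of cells in the library labelled E16.

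Cells of all libraries were clustered together with Scanpy 1.11.5 (scaled to 10000 counts, 2000 variable genes, 30 components, 15 neighbours, Leiden resolution 1) under Python 3.11.15, and 22 of 25 clusters were named from 125 marker genes. UMIs were summed by class and library, with exact Poisson intervals for levels and exact Clopper-Pearson limits of the split of UMIs for ratios. The ratio code was tested on simulated data. With 4 named excitatory neurons in the library labelled E16, its 3 planned neuron comparisons were not made. Where embryos or pooling are concerned, nothing is stated, so intervals measure counting error only.

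The 10 genes, the lists and the alternatives were chosen with earlier results of these data known. Named beside the 10 genes are the 5 stress kinases and sensors and, from each list, the 2 highest and 2 lowest ratios at a mean of 20 CPM or more per comparison; genes of intermediate rank are not named, and some results are not reported here. Alternatives covered cell filters, doublets, clustering, the added CPM, the level filter, the denominator and the thinning depth.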

Additional observations from a re-analysis of the deposited data

How the results depend on the processing

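No paired analysis was possible because each label has 1 library, and no library could be left out. Over the alternatives, 83 of 96 medians stayed within their counting interval, 13 moved and 0 reversed. With at most 5% mitochondrial UMIs the medians were -0.29 in radial glia (E16 over E14), 0.63 in neurons (E18 over E14), and -0.84 (E14) and -0.11 (E18) for neurons over radial glia. For radial glia, E18 over E16, the median was 0.12 with at least 500 genes and at most 20% mitochondrial UMIs and 0.14 at Leiden resolution 2. For neurons, E18 over E14, it was 0.74 at 20 CPM or more and 0.39 with no level filter. The other alternatives were chosen after seeing the data. Unnamed clusters joined to their best class gave 0.12 in radial glia, E18 over E16. Newborn neurons alone gave 0.33 (E18 over E14) and -0.18 (over radial glia, E14). Cells of the main classes with at most 5% mitochondrial UMIs gave 0.77 (neurons, E18 over E14) and -0.12 (neurons over radial glia, E18). Of 1823 ratios and shares of single genes, 336 moved, and 4 that were past 1.5-fold changed sign. Ddit3, neurons over radial glia labelled E14, was at 0.23 with newborn neurons alone. With at most 5% mitochondrial UMIs, Herpud1 was at 0.06 in newborn neurons (E18 over E14) and -0.18 in newborn neurons over intermediate progenitors (E14), and Hsp90b1 at 1.08 in the latter. Ratios short of 1.5-fold also changed sign, such as Hsp90b1 in radial glia, E18 over E16 (-0.09 to 0.14). The cause was not tested, except that the level filter alters which genes enter. In neurons, E18 over E14, Hspa5 ranged from 0.82 to 1.18, Hsp90b1 from 0.63 to 1.32 and Ddit3 from 0.66 to 2.42, past 1.5-fold in 15 of 15 alternatives each. None of these compares the libraries within 1 cluster: in the Crym-led cluster alone Hspa5 was short of 1.5-fold and Ddit3 was not higher under the label E18. Asns in radial glia, E16 over E14, passed 1.5-fold in 9 of 13 alternatives though not in the reported value. Sesn2, Chac1 and Trib3 were below the level set for a call.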
